A study of Mus musculus with 7 samples.

Results

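The chemokine family of the mouse pancreas was described across cell types in 7 single-cell RNA-seq libraries. Members were all genes of the 3 deposited count tables whose symbol was Ccl, Cxcl, Cx3cl, Ccr, Cxcr, Cx3cr or Ackr followed by digits and an optional letter. The rule took 56 of the 33864 genes listed, namely 35 ligands, 17 signalling receptors and 4 atypical receptors. No measured value entered the rule. Related genes with other symbol stems, such as Pf4, Ppbp, Xcl1, Xcr1 and Ccrl2, were not members.

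Each library came from the dissociated pancreas of 1 mouse aged 2 months, with the strain labelled C57BL/6. For the i4F line the study's methods name the substrain C57BL/6J.Ola.Hsd, and the substrain of the mice without the cassette is not given in the sources used here. For 7 days, the 2 WT mice and the 3 i4F mice drank water that held 1 mg/ml of doxycycline. The i4F mice, of the genotype labelled i4F-B, carry the activator rtTA and a transgene from which doxycycline switches on Oct4, Sox2, Klf4 and c-Myc together, which starts partial reprogramming of the tissue, and the labels name no cell type to which the cassette is restricted. The 2 caerulein mice were wild type and received 100 µg/kg of caerulein, an analogue of the hormone cholecystokinin, in 7 injections per day on 2 days, which produces a mild acute pancreatitis. No doxycycline is given in the labels of the caerulein mice, so caerulein and WT mice differed in both agents and the 2 cannot be told apart. The same 2 WT mice served as controls for i4F and for caerulein. Clusters carry the annotation deposited with the cells, and clusters of 1 cell type were joined into 7 tested classes (stellate, endothelial, ductal, acinar, myeloid, NK/T and B).

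Chemokines are small secreted proteins that steer leukocytes along concentration gradients. They bind G protein-coupled receptors on the responding cell, and a small group of atypical receptors binds the same ligands without G protein signalling and removes or transports them. Ligands of Cxcr2 (Cxcl1, Cxcl2, Cxcl3, Cxcl5) attract neutrophils, inflammatory CC ligands attract monocytes through Ccr2 and related cells through Ccr1, and Ccl21a, Ccl19 and Cxcl13 position lymphocytes and dendritic cells. Pancreatic stellate cells are the fibroblast-like cells of the pancreas and are known as a source of chemokines when activated.

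The Cxcr2 ligand genes Cxcl1, Cxcl2 and Cxcl3 lie close together on chromosome 5 and share a stretch of bases in front of their start sites. Their RefSeq promoters (GRCm38.p6) are shown because the results return to these 3 genes. Each line holds the 150 bases before the annotated start, 5′ to 3′ on the plus strand, with the longest run of letters common to all 3 in capitals.
Cxcl1: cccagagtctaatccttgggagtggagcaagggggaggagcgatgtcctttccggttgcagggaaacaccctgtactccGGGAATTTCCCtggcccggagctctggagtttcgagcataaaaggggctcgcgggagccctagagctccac
Cxcl2: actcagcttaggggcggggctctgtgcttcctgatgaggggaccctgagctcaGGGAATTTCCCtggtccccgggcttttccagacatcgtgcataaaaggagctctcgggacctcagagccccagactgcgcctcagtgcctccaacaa
Cxcl3: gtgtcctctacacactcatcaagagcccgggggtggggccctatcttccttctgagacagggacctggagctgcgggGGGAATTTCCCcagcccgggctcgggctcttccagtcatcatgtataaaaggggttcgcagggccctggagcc
These stretches are chr5:90891095-90891244 for Cxcl1, chr5:90903749-90903898 for Cxcl2 and chr5:90785951-90786100 for Cxcl3. The shared run, GGGAATTTCCC, has 11 bases and the letters of an NF-κB type site, and it ran from base -71 to -61 before the start in Cxcl1, from -97 to -87 in Cxcl2 and from -73 to -63 in Cxcl3. On either strand it occurred in 14 of 32851 RefSeq promoters of 300 bases (250 before and 50 after the start), or 0.0426%, and among the 42 members with a promoter in the table in these 3, from which it was read. A match of letters is a description and was not tested as a binding site. In the GENCODE annotation of the same build, the gene Cxcl5 lies in the same block at chr5:90759360-90761624 and Cxcl13 at chr5:95956951-95961068, both on the plus strand, and 10 members in all lie on chromosome 5, 14 on chromosome 11 and 12 on chromosome 9.

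The libraries held 4327 to 15138 cells and 15469018 to 64784216 UMIs (unique molecular identifiers, each counting 1 captured transcript end), with a median of 1248.5 to 4247 UMIs per cell. Pairs of libraries shared 3 to 39 cell barcodes. The activator rtTA was at 42.5, 48.3 and 46.7 CPM of the whole library in i4F 1, 2 and 3, against at most 0.951 CPM in any other library. The cassette gene Sox2 had 15 and 40 UMIs in i4F 1 and 2, 0 in i4F 3 and 0 or 1 in each WT and caerulein library. Pou5f1 (Oct4) was at 2.54 and 8.34 CPM in i4F 1 and 2 and 0.194 CPM in i4F 3, beside 0.951 and 0.145 CPM in WT and 0.479 and 1.87 CPM in caerulein, which carry no cassette. The library labelled i4F 3 therefore carried the activator but stood within the range of mice without the cassette for these 2 genes. It also held the largest share of cells with under 500 genes (41.1%), and the counts of member calls in i4F comparisons are given with and without it.

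Levels are given as CPM, the UMIs of a gene per 1000000 UMIs of the class in 1 mouse. Differences are log2 fold changes from edgeR's quasi-likelihood test on UMIs summed per mouse and class, with p adjusted by Benjamini-Hochberg over all genes tested in the class, and "called" means an adjusted p under 0.05. The value after ± is a derived standard error, the size of the fold change divided by the square root of the test's F statistic. It is approximate, above all for genes with few UMIs in a group. P-values set the difference between groups against a spread between mice, estimated over all groups in the fit. Statements that groups did or did not overlap, or that 1 group lay above or below another, describe the mice and are no test. In groups this small a gene can separate by chance, and the share of all genes without overlap is not given here. Of the 56 members, 49 passed the filter on low counts in at least 1 class, and 26 of them were called in at least 1 class and comparison. The other 7 (Ccl27b, Ccl28, Ccr10, Ccr3, Ccr4, Cxcl15 and Cxcr1) had 1 to 57 UMIs over all libraries and were not tested. The share of all genes called in at least 1 class and comparison is not given here. The count of 26 is therefore not a trait of the family.

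**Figure D1:**
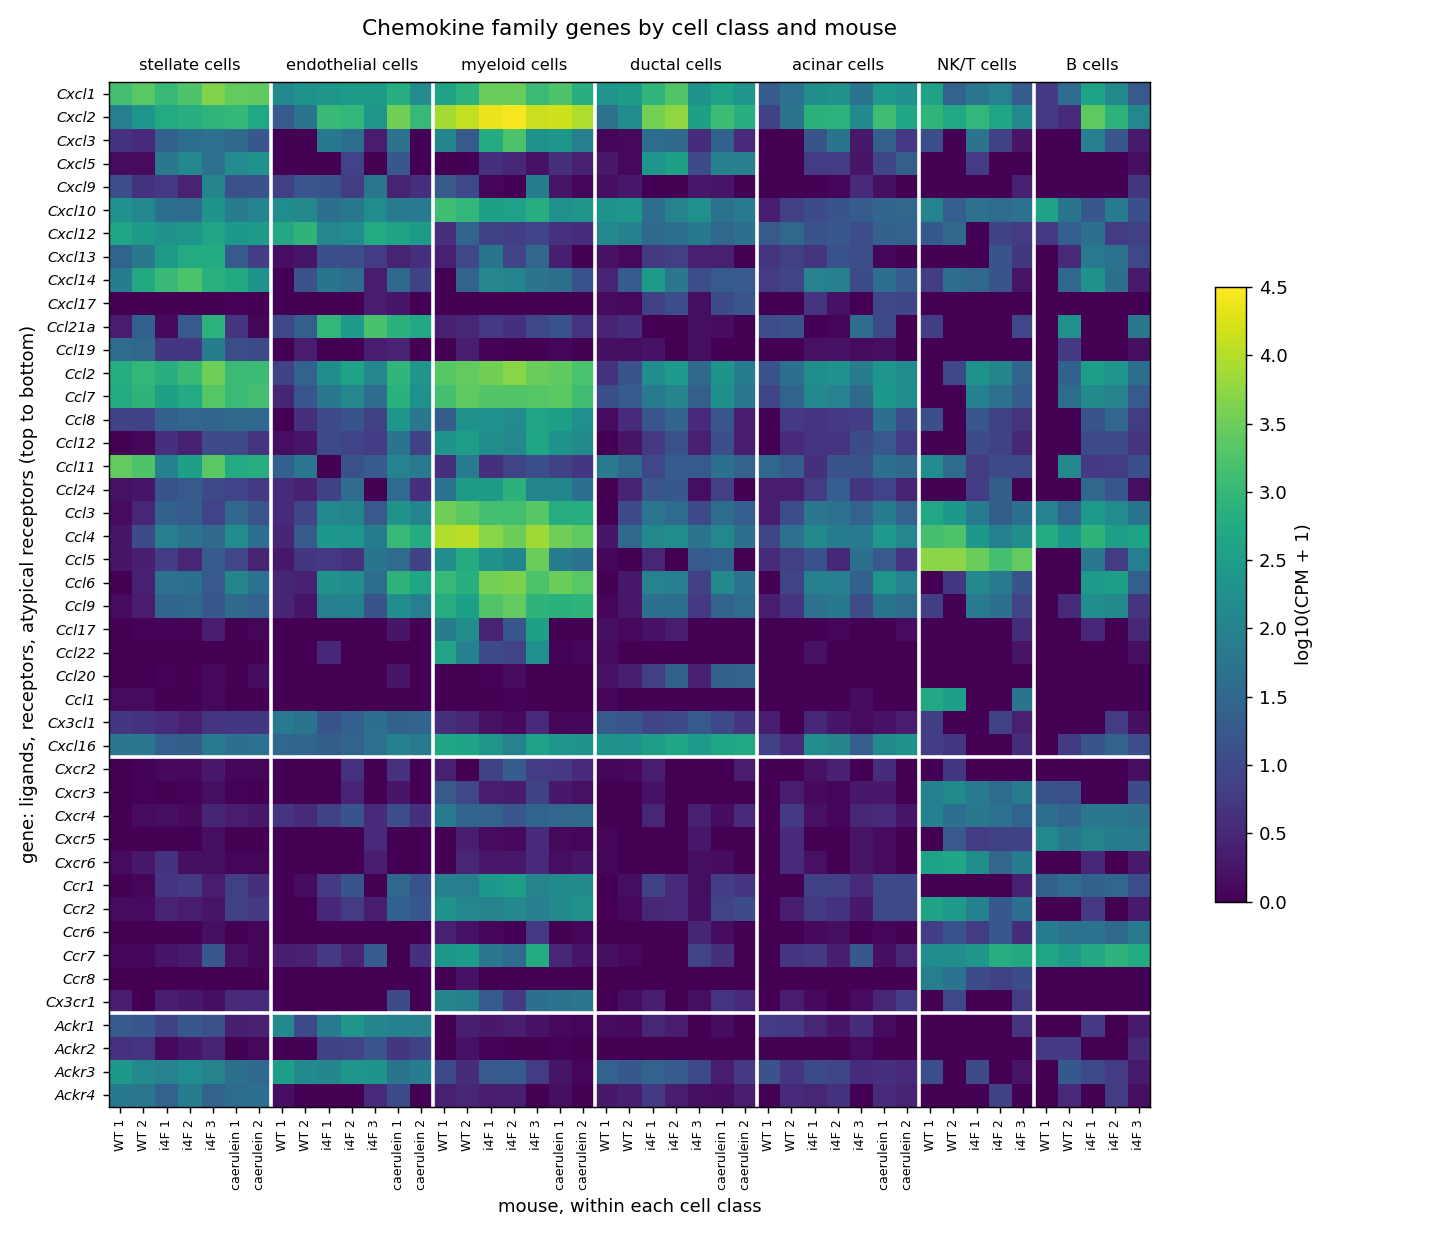
Levels of 44 members (rows, ligands above, then receptors and atypical receptors) as log10 of CPM + 1 in each class and mouse (columns). White lines separate classes and roles. Ligand rows are brightest in myeloid and stellate columns, Ccl21a in the endothelial columns of i4F and caerulein mice, and Ccl5 in the NK/T columns.

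In the WT pancreas, ligands and receptors were spread over different classes. WT stellate cells, quiescent and activated clusters together, carried the eotaxin gene Ccl11, whose product draws eosinophils, at 2635 and 1793 CPM in WT 1 and 2. Cxcl1 stood at 1486 and 2253 CPM in the same cells, and the monocyte attractants Ccl2 and Ccl7 at 607 and 943 CPM and at 565 and 859.7 CPM. These 4 ligands were high in both WT mice. Endothelial cells held Cxcl12, the ligand of Cxcr4, at 509.6 and 846 CPM, and the membrane-bound ligand Cx3cl1 at 67.3 and 52.8 CPM. Myeloid cells were the class with Cx3cr1, its receptor (112 and 94.9 CPM). NK/T cells carried Ccl5, an attractant of T and NK cells, at 5249 and 5213 CPM.

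Atypical receptors marked subsets of the WT vessel and stellate cells. Ackr1, which moves chemokines across venule walls, was at 766 and 99.5 CPM in the cluster Endothelial 2 and at 1.16 and 0.444 CPM in Endothelial 1. Ackr3, which removes Cxcl12, was at 721 and 473 CPM in quiescent stellate cluster 2 and at 94.7 and 37.5 CPM in quiescent stellate cluster 1. Ackr2, a scavenger of inflammatory CC ligands, was highest in the small WT cluster annotated as lymph nodes (188 and 157 CPM in 38 and 50 cells). That cluster also held Ccl21a, the Ccr7 ligand of lymphatic vessels, at 37601 and 42921 CPM, with a UMI in 100% of its cells. Each of these contrasts between clusters had the same direction in both WT mice, and since clusters were built from these counts, no test was made.

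Ligand UMIs took a larger part of the libraries of treated mice. All ligands together made up 4146 and 6750 CPM of the WT libraries, 11833, 16186 and 8940 CPM of the i4F libraries and 15102 and 9983 CPM of the caerulein libraries, with no overlap between WT and either treated group. Myeloid cells held 27.3% and 37.5% of the ligand UMIs in WT, 68.2%, 68.6% and 42.8% in i4F and 69.6% and 60.4% in caerulein. Myeloid cells were 2.40% and 8.13% of WT cells, 35.6%, 39.6% and 6.30% of i4F cells and 50.3% and 40.3% of caerulein cells. i4F 3 was the i4F mouse within the WT range of myeloid share, and its ligand total was the lowest of its group. Within myeloid cells the summed ligand level was 29307 and 35382 CPM in WT, 45716, 53549 and 38137 CPM in i4F and 30835 and 19956 CPM in caerulein, so i4F stood above WT and caerulein overlapped it. Within stellate cells the summed level was 6264 and 7271 CPM in WT, 4766, 7392 and 16080 CPM in i4F and 8075 and 7368 CPM in caerulein, so i4F overlapped WT and caerulein stood just above it.

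**Figure D2:**
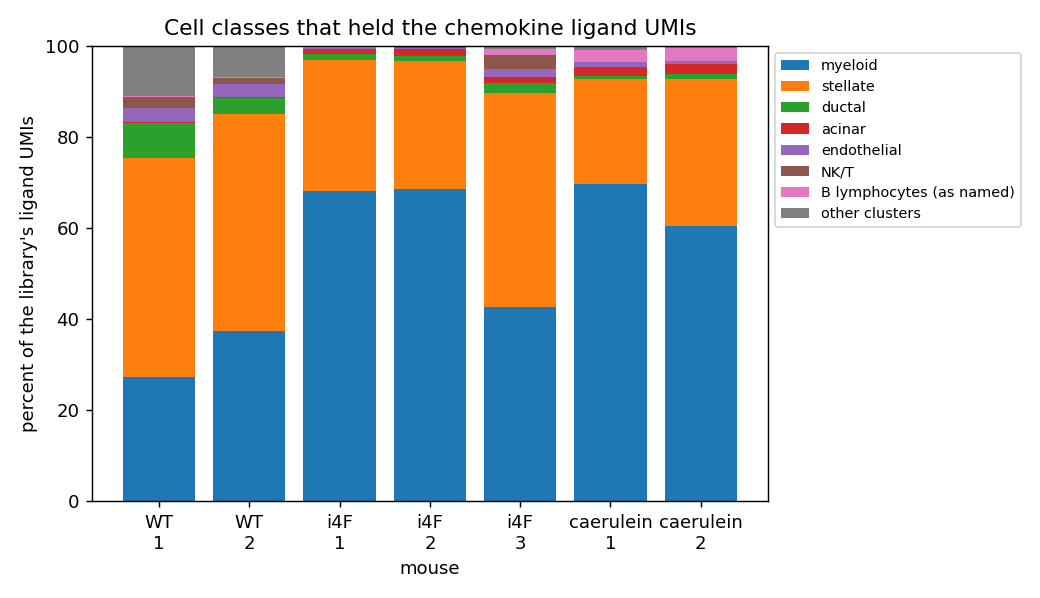
Percent of each library's ligand UMIs (vertical axis, 0 to 100) by the class of the cell that held them, 1 stacked bar per mouse. The myeloid part is 27.3% and 37.5% in WT and 69.6% and 60.4% in caerulein, and the stellate part is 47.9% and 47.7% in WT and 23.0% and 32.4% in caerulein.

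In stellate cells, 3 of 4 tested Cxcr2 ligands were called higher in both treated groups, as were 7 of 11 tested inflammatory CC ligands in caerulein and 6 of 11 in i4F, while 3 of the 4 atypical receptors were called lower in caerulein. Of 36 members tested, 13 were called higher and 3 lower in caerulein against WT, where 17.1% of all genes tested were called. In i4F against WT 13 were called higher and 0 lower with all mice in the fit, with 20.6% of all genes called, and at an unadjusted p under 0.05 there were 18 and 17 members, beside 39.1% and 40.8% of all genes. The median log2 fold change of the members was 1.00 in caerulein and 2.02 in i4F, beside -0.04 and 0.02 over all genes. Members nearly absent in WT, such as Ccl12 and Ccr1, passed the filter through treated mice and could only be higher. The medians, and the counts of higher calls beside the shares of all genes, are therefore no test. The counts rest on the small groups: without WT 1, WT 2, caerulein 1 or caerulein 2 the caerulein count was 0, 1, 1 or 3, and without i4F 3 it was 21. The i4F count was 0 without WT 1 and 0 without WT 2, 7, 1 and 20 without i4F 1, 2 and 3, and 5 without either caerulein mouse. Of the 20 without i4F 3, 15 were higher and 5 lower. WT 1 and the i4F mice belong to 1 series of library names and WT 2 and the caerulein mice to another, and with the series as a term 0 members were called in stellate cells in either comparison. The log2 fold change of Cxcl5 with that term was 9.03 in caerulein and 7.88 in i4F.

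Of the Cxcr2 ligands in stellate cells, Cxcl5 showed the largest difference. Cxcl5, also known as LIX, was at 0.375 and 0.329 CPM in WT, 59.8, 123 and 48.5 CPM in i4F and 145 and 192 CPM in caerulein. WT did not overlap either treated group. Its log2 fold change by edgeR's quasi-likelihood test was 9.02 ± 0.64 in caerulein (Benjamini-Hochberg adjusted p = 0.00315) and 7.90 ± 0.62 in i4F (adjusted p = 0.00489), and without i4F 3 the i4F value was 8.13. Over 16 alternatives each, the caerulein call was lost with the series term (as were all stellate calls) and without WT 1, and the i4F call was past the threshold in 13. i4F and caerulein did not overlap in Cxcl5 either, but their difference was not called (-1.12 ± 0.36, adjusted p = 0.191).

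The share of stellate cells with a Cxcl5 UMI moved with the level. It was 0.176% and 0.12% in WT, 17.4%, 20.7% and 3.44% in i4F and 32.4% and 27.2% in caerulein. Stellate cells differed in depth (median 4700 and 3605 UMIs in WT, 9918, 8942 and 2554.5 in i4F, 7257 and 3475 in caerulein). With each cell thinned to 500 UMIs the shares were 0.0153% and 0.0141%, 2.93%, 4.65% and 0.973%, and 5.99% and 7.39%, in the same order of groups, after leaving out 46 to 214 shallower cells in each treated library and 36 and 80 in WT. Myeloid cells, a class in which Cxcl5 stayed low, had thinned shares of 0% in both WT mice, 0.0614% to 0.115% in i4F and 0.0439% and 0.0899% in caerulein, at median depths of 1719.5 to 5778.5 UMIs. The stellate shares of the treated mice were above those of myeloid cells in each of the 5 libraries. Myeloid cells were taken because Cxcl5 was low there, so this order was set by the choice. The rise was not particular to stellate cells, as the Cxcl5 level was higher in ductal than in stellate cells of i4F 1 and i4F 2. In i4F the level was 60.7, 126 and 123 CPM in activated stellate cluster 1 and 12.5, 9.12 and 23.8 CPM in cluster 2.

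Cxcl3 was at 3.56 and 2.52 CPM in WT, 23.0, 41.2 and 48.5 CPM in i4F and 35.4 and 15.6 CPM in caerulein. WT was below both other groups, and Cxcl3 rose by 3.80 ± 0.55 in i4F (edgeR's quasi-likelihood test, Benjamini-Hochberg adjusted p = 0.0177) and by 3.28 ± 0.56 in caerulein (adjusted p = 0.0184) on the log2 scale. Cxcl2, a rapidly induced neutrophil attractant, was at 85.4 and 234 CPM in WT, 556, 666 and 865 CPM in i4F and 987 and 481 CPM in caerulein. It rose by 2.25 ± 0.58 (adjusted p = 0.0393) and 2.34 ± 0.61 (adjusted p = 0.0438). Cxcl1 was high everywhere, at 1486 and 2253 CPM in WT, 1077, 1809 and 4411 CPM in i4F and 2646 and 2493 CPM in caerulein. Its WT and i4F values overlapped and neither difference was called (0.53 ± 0.59 and 0.60 ± 0.64). So 3 of the 4 tested ligands of this list were called higher in each comparison, and the 1 that was not had the highest WT level.

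**Figure D3:**
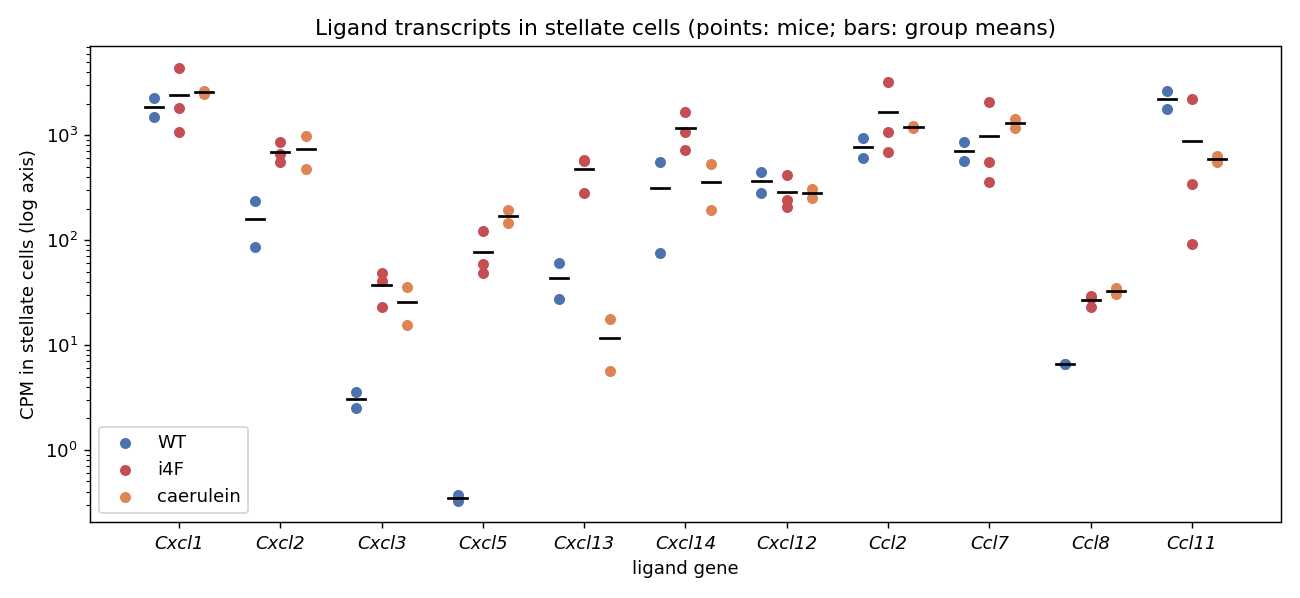
Levels of 11 ligands in stellate cells in CPM (vertical log axis), 1 point per mouse, with bars at the group means. Cxcl5 and Ccl8 separate WT from all treated mice, Cxcl13 is highest in the 3 i4F mice (283 to 581 CPM), and Cxcl1 and Ccl2 overlap between WT and i4F.

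Among homeostatic ligands, Cxcl13, the B cell attractant that binds Cxcr5, was called higher in i4F. It was at 27.3 and 60.5 CPM in WT, 283, 563 and 581 CPM in i4F and 17.8 and 5.59 CPM in caerulein. The 3 groups did not overlap, with caerulein lowest. Cxcl13 rose by 3.56 ± 0.70 on the log2 scale in i4F against WT (edgeR's quasi-likelihood test, Benjamini-Hochberg adjusted p = 0.0247), and by 3.35 without i4F 3, and the value for caerulein against WT was -1.73 ± 0.68 (adjusted p = 0.109). i4F against caerulein gave 5.29 ± 0.77 (adjusted p = 0.049), a call that held in 7 of 16 alternatives. In cells thinned to 500 UMIs the stellate share with a Cxcl13 UMI was 0.544% and 0.731% in WT, 2.31%, 5.58% and 4.93% in i4F and 0.739% and 0.291% in caerulein, and that of i4F myeloid cells was 0.58%, 0.368% and 0.572%. Cxcl13 was also high in the mesothelium clusters (415 and 1587 CPM in WT, 127 and 20.3 CPM in caerulein), and mesothelial markers summed to 74.9 and 48.4 CPM in WT stellate cells, 103, 142 and 287 CPM in i4F and 46.9 and 52.7 CPM in caerulein. The part of these markers in the Cxcl13 result was not tested.

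Cxcl14, a ligand expressed by epithelia and fibroblasts, was at 75.7 and 551 CPM in WT stellate cells, 1083, 1681 and 729 CPM in i4F and 531 and 193 CPM in caerulein. i4F stood above both other groups, but the WT mice differed widely and the change was not called (1.98 ± 0.91, adjusted p = 0.145 by edgeR's quasi-likelihood test with Benjamini-Hochberg adjustment). Cxcl12 overlapped between all groups (446 and 283 CPM in WT, 205, 243 and 420.1 CPM in i4F, 254 and 309.9 CPM in caerulein). Of the Cxcr3 ligands, which interferon induces, Cxcl9 ranged from 1.77 to 110.4 CPM and Cxcl10 from 39.4 to 211 CPM over the stellate cells of the 7 mice, both with their highest value in i4F 3, and neither was called. Cxcl10 was also high in WT, at 191 and 123 CPM, beside 42.2 CPM in i4F 1. Ccl21a was at 1.31 and 24.3 CPM in WT, 0.323, 18.0 and 821 CPM in i4F and 3.87 and 0.133 CPM in caerulein, with 1 library far above the rest and no call. In caerulein 0 of 7 homeostatic and 0 of 2 Cxcr3 ligands were called in stellate cells.

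Inflammatory CC ligands were called higher in stellate cells for 7 of 11 tested members in caerulein and 6 of 11 in i4F. Ccl8, a monocyte attractant, was at 6.56 and 6.57 CPM in WT, 23.1, 29.3 and 28.0 CPM in i4F and 35.2 and 30.5 CPM in caerulein. WT was below all treated mice, and Ccl8 rose by 2.18 ± 0.22 in i4F and 2.48 ± 0.23 in caerulein on the log2 scale (adjusted p = 0.0115 and 0.00832, edgeR's quasi-likelihood test with Benjamini-Hochberg adjustment). Ccl9, a Ccr1 ligand, was at 0.375 and 1.21 CPM in WT, 28.4, 31.1 and 15.6 CPM in i4F and 35.3 and 25.4 CPM in caerulein. Ccl24, an eotaxin like Ccl11, was at 0.562 and 0.877 CPM in WT, 13.9, 17.1 and 8.66 CPM in i4F and 7.2 and 4.79 CPM in caerulein. Both were higher in every treated mouse than in WT, with log2 fold changes of 4.99 ± 0.55 and 4.29 ± 0.48 in i4F and 5.27 ± 0.57 and 3.16 ± 0.50 in caerulein, all called. Ccl6 was at 0 and 1.53 CPM in WT, 49.4, 42.4 and 17.3 CPM in i4F and 110.5 and 46.9 CPM in caerulein. Ccl3 was at 0.375 and 2.08 CPM in WT, 24.3, 19.2 and 7.18 CPM in i4F and 29.8 and 14.6 CPM in caerulein. Ccl12 was at 0 and 0.219 CPM in WT, 3.21, 1.47 and 10.1 CPM in i4F and 9.53 and 3.73 CPM in caerulein. WT lay below every treated mouse for these 3, and each was called in both comparisons. Ccl4 was at 0.749 and 9.75 CPM in WT, 88.4, 47.5 and 34.1 CPM in i4F and 144 and 41.9 CPM in caerulein, and was called in caerulein (adjusted p = 0.0453) with an adjusted p of 0.0553 in i4F. WT held only 2 UMIs of Ccl12, and the ratio of pooled levels to WT was 60.0 (95% counting interval 16.5 to 498) in caerulein and 22.0 (6.00 to 182) in i4F.

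The monocyte attractants that WT stellate cells already carried were not called. Ccl2 was at 607 and 943 CPM in WT, 698, 1071 and 3227 CPM in i4F and 1179.9 and 1236 CPM in caerulein. Ccl7 was at 565 and 859.7 CPM, 361, 561 and 2054 CPM, and 1177 and 1433 CPM. For both, caerulein was above WT and i4F overlapped it, with i4F 3 the highest mouse. Ccl11 was at 2635 and 1793 CPM in WT, 92.1, 343 and 2232 CPM in i4F and 553 and 639 CPM in caerulein. Its values in i4F 1, i4F 2 and caerulein were below both WT mice while i4F 3 lay between them, and neither difference was called with all mice in the fit (-1.12 ± 1.08 in i4F and -1.73 ± 1.23 in caerulein). Without i4F 3 both were called lower, at -3.21 and -1.73.

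Receptors in stellate cells were near 0 in WT. Ccr2, the receptor of Ccl2, was at 0.375 and 0.329 CPM in WT, 1.71, 1.25 and 0.742 CPM in i4F and 6.09 and 4.66 CPM in caerulein. Ccr1 had 2 UMIs in WT, with ratios of 30.1 (95% counting interval 8.25 to 249) in i4F and 40.0 (10.9 to 333) in caerulein. Both are leukocyte receptors and both were called in both comparisons, at levels of at most 6.2 CPM.

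Atypical receptors were lower in caerulein stellate cells. Ackr1 was at 18.4 and 15.8 CPM in WT, 6.49, 15.3 and 11.9 CPM in i4F and 1.43 and 1.6 CPM in caerulein. Ackr3 was at 248 and 137 CPM in WT, 96, 155 and 102 CPM in i4F and 45.1 and 33.7 CPM in caerulein. Ackr2 was at 3.37 and 3.83 CPM, 0.3, 0.907 and 1.73 CPM, and 0.0717 and 0.266 CPM. Caerulein was below WT and below i4F for each of the 3. The WT stellate class joined quiescent and activated clusters, and Ackr3 differed widely between the WT quiescent clusters. The part of the cluster mix of each group in these values was not tested. In caerulein against WT Ackr1 fell by 3.33 ± 0.43, Ackr2 by 4.63 ± 0.98 and Ackr3 by 2.10 ± 0.35 on the log2 scale (adjusted p = 0.0126, 0.0278 and 0.0177, edgeR's quasi-likelihood test with Benjamini-Hochberg adjustment). In i4F none of the 4 atypical receptors was called (Ackr1 -0.45 ± 0.34, Ackr2 -2.06 ± 0.71, Ackr3 -0.53 ± 0.31), and Ackr4, which scavenges Ccl19 and Ccl21, was not called in either. In i4F against caerulein, where 0.459% of all genes were called, Ackr1 (2.88 ± 0.41, adjusted p = 0.049) and Cxcl13 were called among the 36 members. Both calls were lost with DESeq2-type size factors (RLE) in place of TMM, and with the series term. Without i4F 3 the count of this comparison was 10, without i4F 1 it was 1, and without any other mouse it was 0.

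**Figure D4:**
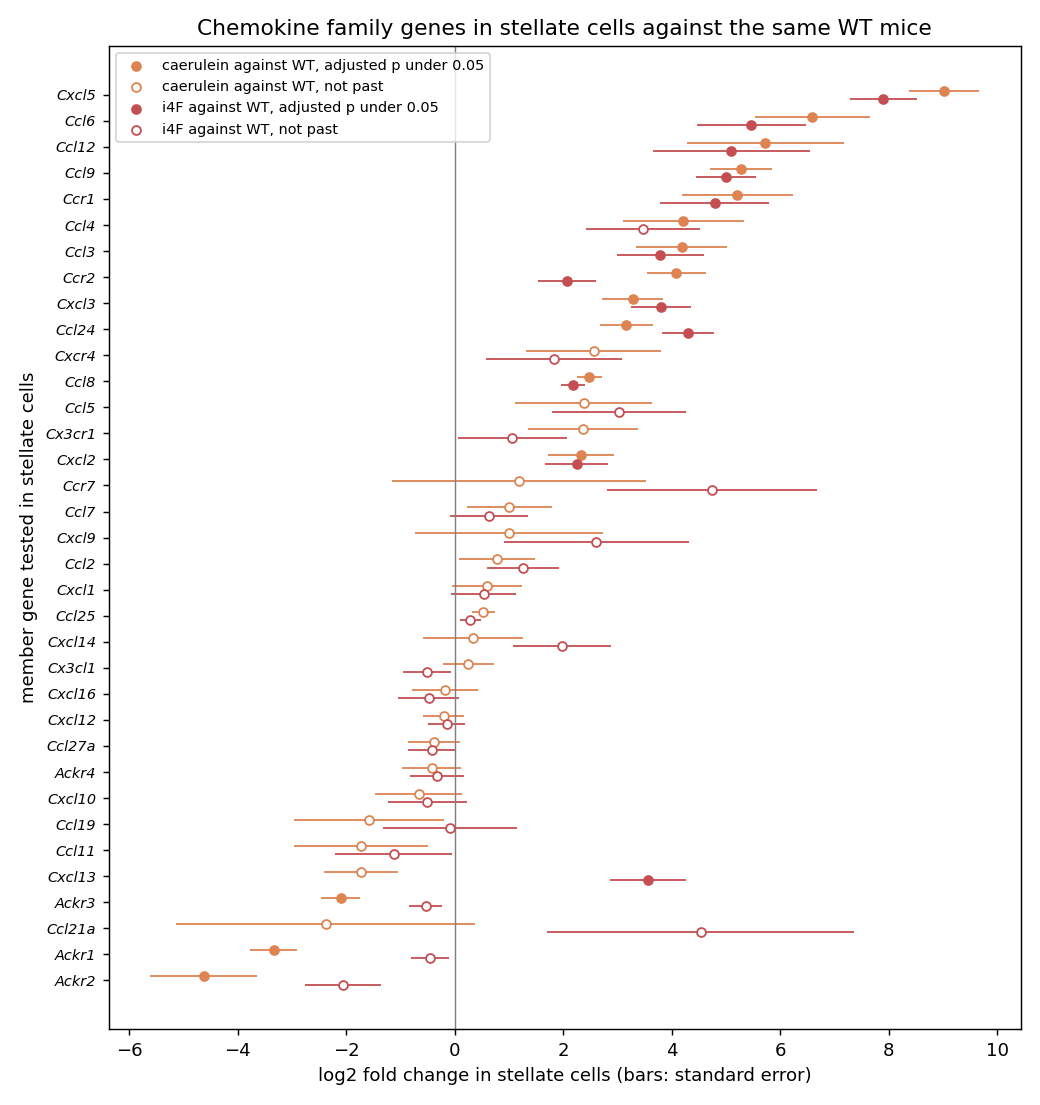
Log2 fold changes in stellate cells with bars of the derived standard error for 35 of the members tested, caerulein against WT and i4F against WT, filled where the adjusted p was under 0.05. Cxcl5 lies at 9.02 and 7.90, Cxcl13 at -1.73 in caerulein and 3.56 in i4F, and Ackr1, Ackr2 and Ackr3 below 0 in both.

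Signs of other cells moved with several of these stellate results. The median level of 11 macrophage markers in stellate cells was 0.0696% and 0.223% of that in the same mouse's myeloid cells in WT, 1.30%, 1.39% and 1.22% in i4F and 4.79% and 3.29% in caerulein. Of the 13 members called higher in stellate cells, 7 in each comparison stood within the range of those markers in every treated mouse when expressed in the same way. Ccl8 stood above the median in each of them, at 12.4%, 19.9% and 6.54% of the myeloid level in i4F and 10.2% and 17.1% in caerulein. Cxcl5 and Cxcl13 were below 100 CPM in myeloid cells and could not be set on this scale. Members set on it in only some treated mice were not counted among the 7. These included Ccl24 and Cxcl3 in caerulein (1 of 2 mice each) and Ccr2 in i4F (2 of 3). Ccl24 and Ccr2 lay within the range in those mice and Cxcl3 did not. The range was wide in i4F 2, from 0.865% to 23.0%, and in i4F 3, from 0.679% to 29.1%, beside 1.04% to 6.33% in i4F 1. Cxcl3 in i4F 3 counted as within the range at 24.98%, far above the median of 1.22% in that mouse. A place within the range therefore says little in i4F 2 and i4F 3. Mixed-marker cells, those with at least 2 UMIs of leukocyte genes, were 15.6% and 6.37% of the stellate cells of caerulein 1 and 2. Markers of other non-immune classes were not screened. With mixed-marker cells left out 9 members were called in caerulein, 8 of them as before (Cxcl3, Cxcl5, Ccl8, Ccl9, Ccl24, Ackr1, Ackr2 and Ackr3). In i4F 9 members remained called (Cxcl3, Cxcl5, Cxcl13, Ccl3, Ccl6, Ccl8, Ccl9, Ccl12 and Ccl24). Genes of the early response to tissue handling and heat shock genes summed to 16995 and 22003 CPM in WT stellate cells, 2801, 3267 and 11450 CPM in i4F and 4629 and 5960 CPM in caerulein. The part of these genes in the results was not tested.

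**Figure D5:**
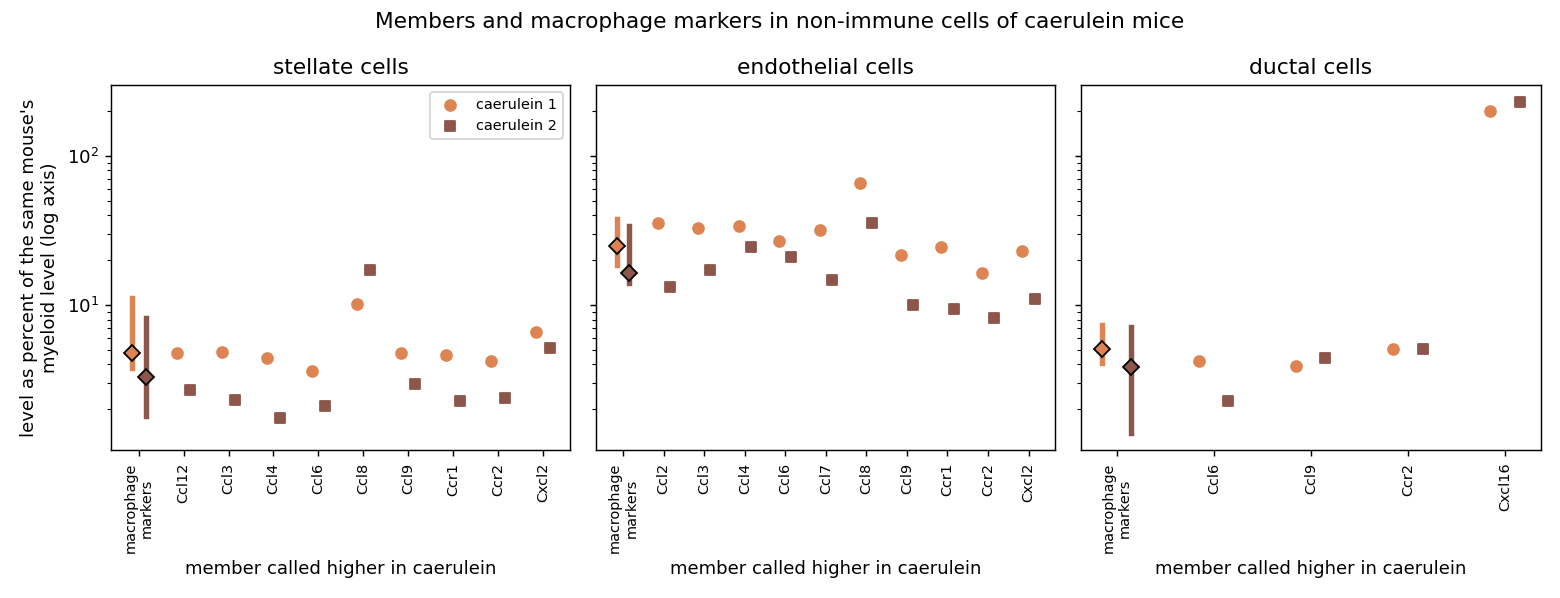
Members called higher in stellate, endothelial and ductal cells of the 2 caerulein mice with at least 100 CPM in myeloid cells, each as a percent of the same mouse's myeloid level (log axis), with a bar for the range and a diamond for the median of 11 macrophage markers. In both mice the points of 4 of 11 endothelial and 2 of 6 ductal members called in caerulein lie within the marker bars. Endothelial Ccl8 lies above the bars and Ccr2 below them in both mice, endothelial Ccl2, Ccl9, Ccr1 and Cxcl2 lie below them in caerulein 2 and within them in caerulein 1, ductal Ccl9 lies below them in caerulein 1, and Cxcl16 in ductal cells of caerulein mice lies at 199% and 231%.

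In endothelial cells 11 of 24 tested members were called higher in caerulein against WT, with 4.11% of all genes called, and 3 in i4F, with 0.81%. Their median log2 fold change was 4.36 and 3.01, beside 0.00 and 0.02 over all genes. Members nearly absent in WT, such as Ccr1 and Ccr2, passed the filter through treated mice and could only be higher. The medians, and the counts of higher calls beside the shares of all genes, are therefore no test. Without caerulein 1 the caerulein count was 1, without WT 1 it was 4 and without i4F 3 it was 17. The i4F count was 0 without WT 1 or i4F 1, 1 without i4F 2, 2 without either caerulein mouse and 16 without i4F 3. Ccl21a, which lymphatic endothelium uses to draw Ccr7-bearing cells, was at 8.59 and 21.9 CPM in WT, 962, 308 and 1613 CPM in i4F and 774 and 505 CPM in caerulein. WT was far below every treated mouse, and Ccl21a rose by 6.04 ± 0.86 in i4F and 5.46 ± 0.86 in caerulein (adjusted p = 0.0248 and 0.00926, edgeR's quasi-likelihood test with Benjamini-Hochberg adjustment). Without i4F 3 its i4F value was 5.36. The annotation places lymphatic cells differently between the groups. In WT the cluster named lymph nodes (lymphatic markers at 8349 and 6398 summed CPM) lies outside the endothelial class, and lymphatic markers summed to 83.5 and 64.2 CPM in WT endothelial cells, 513, 392 and 474 CPM in i4F and 285 and 378 CPM in caerulein. Reads of the near-identical genes Ccl21b and Ccl21c could not be told apart from those of Ccl21a.

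The other endothelial calls in caerulein were 7 inflammatory CC ligands (Ccl2, Ccl3, Ccl4, Ccl6, Ccl7, Ccl8 and Ccl9), Cxcl2 and the receptors Ccr1 and Ccr2. Ccl6, a myeloid CC ligand, was at 1.91 and 1.62 CPM in WT, 195, 162 and 41.6 CPM in i4F and 829 and 467 CPM in caerulein, with a log2 fold change of 8.56 ± 0.84 in caerulein (adjusted p = 0.00172) and 6.18 ± 0.79 in i4F (adjusted p = 0.0173, edgeR's quasi-likelihood test with Benjamini-Hochberg adjustment). Ccl8 was at 0 and 3.25 CPM in WT, 9.08, 13.9 and 6.5 CPM in i4F and 227 and 63.5 CPM in caerulein. Caerulein stood above both other groups for Ccl6 and Ccl8. Cxcl2 was at 18.1 and 50.8 CPM in WT, 1087, 936 and 243 CPM in i4F and 3425 and 1016 CPM in caerulein, and was called in caerulein (6.11 ± 0.96, adjusted p = 0.00943). Ccl4 was at 1.91 and 17.5 CPM in WT, 252, 233 and 80.7 CPM in i4F and 1109 and 587 CPM in caerulein. Ccl7 was at 1.91 and 15.03 CPM in WT, 63.5, 118 and 39.03 CPM in i4F and 757 and 184 CPM in caerulein. Caerulein stood above both other groups for these 2 as well. Ccl2 was at 6.68 and 25.2 CPM in WT, 163, 383 and 118 CPM in i4F and 904 and 219 CPM in caerulein. Ccl3 was at 2.39 and 7.72 CPM in WT, 125, 104 and 16.9 CPM in i4F and 203 and 108 CPM in caerulein. Ccl9 was at 1.91 and 0.812 CPM in WT, 88.5, 94.0 and 13.0 CPM in i4F and 159 and 85.7 CPM in caerulein. For these 3 WT lay below every treated mouse and i4F overlapped caerulein, and Ccl9 was also called in i4F (5.51 ± 0.92). The receptor Ccr1 was at 0 and 0.406 CPM in WT, 4.54, 13.9 and 0 CPM in i4F and 32.7 and 12.7 CPM in caerulein. Ccr2 was at 0 CPM in both WT mice, 2.27, 5.22 and 1.30 CPM in i4F and 23.5 and 15.9 CPM in caerulein. With 0 UMIs in WT, Ccr2 was at least 33.3-fold higher in caerulein against a floor of 3 UMIs. In the same cells the median of the macrophage markers was 0.317% and 0.266% of the myeloid level in WT, 2.81%, 3.70% and 1.20% in i4F and 24.9% and 16.3% in caerulein, and the macrophage markers summed to 680 and 1202 CPM, 1917, 1660 and 1486 CPM, and 12516 and 9484 CPM. With mixed-marker cells left out (18.6% and 8.33% of the endothelial cells of caerulein 1 and 2), Ccl21a remained called in caerulein (log2 fold change 5.84), and Ccl21a and Ccl6 in i4F. Of the other 10 caerulein calls, Ccl8, Ccr1 and Ccr2 were too low to be tested there, and 7 were no longer past the threshold, with log2 fold changes from 2.46 (Ccl3) to 5.79 (Ccl6). With the series term 5 caerulein calls remained (Ccl4, Ccl6, Ccl8, Ccl9 and Ccr2), and Ccl21a remained in i4F.

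Ligands and receptors that WT endothelial cells express at a high level were not called with all mice in the fit. Cxcl12 was at 509.6 and 846 CPM in WT, 120.2, 153 and 554 CPM in i4F and 383 and 286 CPM in caerulein. Cx3cl1 was at 67.3 and 52.8 CPM, 13.6, 22.6 and 44.2 CPM, and 23.5 and 28.6 CPM. Ackr3 was at 334 and 136 CPM, 113, 223 and 212 CPM, and 54.5 and 79.4 CPM. Without i4F 3, Cxcl12 was called lower in i4F against WT (log2 fold change -2.29, beside -1.19 with it). For these 3 both caerulein mice lay below both WT mice, and the value nearest to a call was Ackr3 (-1.73 ± 0.47, adjusted p = 0.0845 by edgeR's quasi-likelihood test with Benjamini-Hochberg adjustment). Cxcl1 was at 123 and 208 CPM in WT, 243, 303 and 285 CPM in i4F and 629 and 149 CPM in caerulein. Cxcl10 was at 153 and 129 CPM in WT, 45.4, 62.7 and 155 CPM in i4F and 73.8 and 73.0 CPM in caerulein. The atypical receptor Ackr1, which venular endothelium carries, was at 138 and 8.94 CPM in WT, 74.9, 240.2 and 112 CPM in i4F and 95.6 and 92.0 CPM in caerulein. None of these 3 was called, and WT overlapped caerulein for Cxcl1 and Ackr1 and i4F for Cxcl10 and Ackr1. In i4F against caerulein, with 0.601% of all genes called, 0 of 24 members were called by edgeR, 11 had an unadjusted p under 0.05, beside 10.0% of all genes, DESeq2 called 3, and edgeR called 2 without i4F 3 and 1 without WT 1 or WT 2.

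In ductal cells 6 of 28 tested members were called higher in caerulein, with 3.53% of all genes called. With the series of library names as a term 0 of these 6 stayed called. Members nearly absent in WT, such as Ccr2 and Cxcl17, passed the filter through treated mice and could only be higher. The count of 6 beside 3.53% is therefore no test of the family. Without either WT or either caerulein mouse the count was 0, without i4F 2 it was 1, and without i4F 3 it was 18. Cxcl16, a transmembrane ligand of Cxcr6 found on epithelium and macrophages, was at 208 and 187 CPM in WT, 322, 433 and 261 CPM in i4F and 465 and 491 CPM in caerulein. The 3 groups did not overlap. Cxcl16 rose by 1.44 ± 0.29 in caerulein (adjusted p = 0.0396, edgeR's quasi-likelihood test with Benjamini-Hochberg adjustment), and its ductal level was 199% and 231% of the myeloid level in caerulein and 47.1% and 45.2% in WT. Ccl20, which draws Ccr6-bearing lymphocytes to epithelia, was at 0.675 and 1.43 CPM in WT, 6.17, 23.4 and 1.44 CPM in i4F and 23.0 and 25.8 CPM in caerulein (4.68 ± 1.02, adjusted p = 0.0473). Cxcl17, a mucosal ligand, was at 0.337 and 0.239 CPM in WT, 6.17, 11.1 and 0.481 CPM in i4F and 9.67 and 14.8 CPM in caerulein. It had 3 UMIs in WT, with a ratio of 36.9 (95% counting interval 11.6 to 187) in caerulein (adjusted p = 0.0473). The other 3 calls were Ccl6 (0 and 0.955 CPM in WT, 98.1, 90.01 and 6.26 CPM in i4F and 129 and 50.4 CPM in caerulein), Ccl9 (0.169 and 0.955 CPM in WT, 43.9, 41.9 and 4.81 CPM in i4F and 28.6 and 38.1 CPM in caerulein) and Ccr2 (0 and 0.239 CPM in WT, 2.06, 2.47 and 0.481 CPM in i4F and 7.26 and 9.84 CPM in caerulein). WT lay below every treated mouse for each of them. The epithelial ligands Cxcl16, Ccl20 and Cxcl17 stayed called with mixed-marker cells left out, while Ccl6 (log2 fold change 6.38) and Ccl9 (4.14) were no longer past the threshold, Ccr2 was too low to be tested there and 3 others took their place.

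Cxcl5 and Cxcl2 were far apart between treated and WT ductal cells but not called. Cxcl5 was at 1.01 and 0.239 CPM in WT, 235, 359 and 9.63 CPM in i4F and 91.5 and 91.0 CPM in caerulein. Cxcl2 was at 47.0 and 154 CPM, 3564, 5554 and 357 CPM, and 1207 and 689 CPM. i4F 3 was the lowest i4F mouse for both by a wide margin, and no group of treated mice overlapped WT. The log2 fold change of Cxcl5 was 7.16 ± 1.59 in caerulein (adjusted p = 0.0506) and 8.29 ± 1.61 in i4F (adjusted p = 0.19, edgeR's quasi-likelihood test with Benjamini-Hochberg adjustment). In i4F against WT 0 of 28 members were called by edgeR, with 0.00861% of all genes called, although 22 had an unadjusted p under 0.05, beside 17.4% of all genes, and DESeq2 called 12. Without i4F 3 edgeR called 23 members in this comparison, 19 of them higher. In i4F against caerulein 0 were called by edgeR, with 0.387% of all genes called, 3 had an unadjusted p under 0.05, beside 16.9% of all genes, DESeq2 called 1 and edgeR called 3 without i4F 3. Ccl2 was at 3.54 and 13.1 CPM in WT, 161, 259 and 35.1 CPM in i4F and 216 and 80.0 CPM in caerulein. Ccl7 was at 11.1 and 18.6 CPM in WT, 72.7, 111 and 22.1 CPM in i4F and 173 and 57.8 CPM in caerulein, and Ccl4 at 0.843 and 33.4 CPM in WT, 128, 152 and 53.4 CPM in i4F and 127 and 45.5 CPM in caerulein. WT was the lowest group for these 3, none of which was called. Cxcl1 was at 221 and 301 CPM in WT, 923, 1928 and 217 CPM in i4F and 403 and 223 CPM in caerulein, and Cxcl14 at 1.85 and 19.6 CPM in WT, 285, 60.4 and 11.1 CPM in i4F and 17.7 and 18.5 CPM in caerulein. Both overlapped between WT and each treated group. Cxcl10 was at 192 and 233 CPM in WT, 40.5, 102 and 184 CPM in i4F and 47.2 and 66.4 CPM in caerulein, and Cxcl12 at 118 and 94.3 CPM in WT, 32.9, 40.7 and 65.0 CPM in i4F and 31.0 and 44.3 CPM in caerulein. WT was the highest group for these 2, and neither was called. The median macrophage marker in ductal cells was 0.0362% and 0.436% of the myeloid level in WT, 3.18%, 2.68% and 0.607% in i4F and 5.07% and 3.88% in caerulein.

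In acinar cells, the enzyme-secreting cells of the gland, edgeR called 0 of 30 tested members in any comparison. All genes called were 0.0359% in caerulein against WT, 0.0808% in i4F against WT and 0.126% in i4F against caerulein. Members with an unadjusted p under 0.05 numbered 19, 14 and 8 in that order, beside 21.9%, 25.1% and 18.8% of all genes, and DESeq2 called 12, 10 and 1. Without i4F 3 edgeR called 16, 14 and 8, without i4F 1 it called 2 in caerulein against WT, and with only the 2 groups in the fit it called 12 there. Cxcl16 was at 6.52 and 2.45 CPM in WT, 157, 109 and 22.2 CPM in i4F and 142 and 194 CPM in caerulein. WT was below every treated mouse, with 4.63 ± 0.84 in caerulein (adjusted p = 0.061) and 4.14 ± 0.81 in i4F (adjusted p = 0.081, edgeR's quasi-likelihood test with Benjamini-Hochberg adjustment). Cxcl2 was at 6.52 and 53.8 CPM in WT, 783, 823 and 135 CPM in i4F and 1314 and 468 CPM in caerulein. Cxcl1 was at 18.2 and 48.9 CPM in WT, 174, 199 and 50.9 CPM in i4F and 269 and 189.6 CPM in caerulein. Ccl2 was at 13.0 and 44.0 CPM in WT, 177, 190.2 and 79.0 CPM in i4F and 233 and 149.5 CPM in caerulein. WT was below every treated mouse for these 3 as well. Ccl7 was at 7.82 and 26.9 CPM in WT, 128, 99.5 and 34.6 CPM in i4F and 254 and 157 CPM in caerulein, and caerulein stood above i4F and WT. Ccl6 was at 0 and 7.34 CPM in WT, 94.6, 91.0 and 22.5 CPM in i4F and 239.8 and 97.5 CPM in caerulein, and Ccl4 at 7.82 and 46.5 CPM in WT, 143, 78.1 and 66.9 CPM in i4F and 261 and 122 CPM in caerulein, with WT lowest for both. Acinar libraries differed in quality along the same line. Cells under 500 detected genes were 85.2% and 82.9% of acinar cells in WT, 48.3%, 48.6% and 79.3% in i4F and 29.7% and 41.9% in caerulein. The median UMI count per acinar cell was 431 and 502 in WT, 1933, 2020 and 606 in i4F and 2213.5 and 1322.5 in caerulein. Mixed-marker cells, here those with UMIs of leukocyte genes, were 0.117% and 0.109% of acinar cells in WT, 14.1%, 12.3% and 3.00% in i4F and 17.8% and 8.14% in caerulein. WT had the shallowest acinar cells and the fewest mixed-marker cells, and with either those cells or the cells under 500 genes left out edgeR still called 0 members in each of the 3 comparisons. The part of depth in the Cxcl16 values was not tested.

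In myeloid cells, the class with most ligand UMIs in i4F 1, i4F 2 and caerulein, called members were lower in caerulein. Of 39 tested members 4 were called lower against WT, with 5.66% of all genes called, and the median log2 fold change was -0.88. Ccl17, absent in caerulein, could only be lower, so this median is no test. With the series of library names as a term 0 of these 4 stayed called. The count was 1 without WT 1, 0 without WT 2, either caerulein mouse or i4F 1, 3 without i4F 2 and 12 without i4F 3. Ccl3, a ligand of Ccr1, was at 3343 and 2352 CPM in WT, 1501, 1345 and 2168 CPM in i4F and 614 and 632 CPM in caerulein. Cxcl10, an interferon-induced Cxcr3 ligand, was at 1298 and 971 CPM in WT, 362, 380.2 and 623 CPM in i4F and 187 and 240.5 CPM in caerulein. The 3 groups did not overlap for either gene, with WT highest and caerulein lowest. In caerulein Ccl3 fell by 2.13 ± 0.31 and Cxcl10 by 2.36 ± 0.32 on the log2 scale (adjusted p = 0.0328 for both, edgeR's quasi-likelihood test with Benjamini-Hochberg adjustment). Genes of the early response to tissue handling summed to 7960 and 13463 CPM in WT myeloid cells, 1728, 1885 and 5807 CPM in i4F and 2496 and 3503 CPM in caerulein.

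The other 2 calls were genes of migrating dendritic cells. Ccr7, which guides them to lymph nodes, was at 239.7 and 297 CPM in WT, 57.0, 36.7 and 575 CPM in i4F and 2.04 and 0.774 CPM in caerulein (-7.30 ± 1.53, adjusted p = 0.0425, edgeR's quasi-likelihood test with Benjamini-Hochberg adjustment). Ccl22, a Ccr4 ligand, was at 432 and 89.5 CPM in WT, 10.0, 7.53 and 186 CPM in i4F and 0.0905 and 0.194 CPM in caerulein. It had 3 UMIs in caerulein and 413 in WT, a WT to caerulein ratio of 1766 (95% counting interval 600 to 8596). Dendritic markers summed to 945 and 661 CPM in WT myeloid cells, 101, 96.5 and 791 CPM in i4F and 128 and 186 CPM in caerulein. The other Ccr4 ligand, Ccl17, was at 75.3 and 165 CPM in WT, 1.68, 15.3 and 354 CPM in i4F and 0 CPM in both caerulein mice, with no call. The cluster named B lymphocytes in the caerulein table (994 and 398 cells) had B cell markers at only 1192 and 333 CPM and macrophage markers at 12025 and 12787 CPM, which goes against its name, and it held Ccr7 at 181 and 86.3 CPM and Ccl22 at 11.03 and 8.81 CPM (30 and 5 UMIs). With that cluster added to the caerulein myeloid class, an alternative chosen after seeing the data, none of the 4 calls was past the threshold (Ccl3 -2.24, adjusted p = 0.0504, Cxcl10 -2.39, adjusted p = 0.0504, Ccl22 -7.65, adjusted p = 0.073, Ccr7 -4.02, adjusted p = 0.114). Ccr7 was at 400.3 and 929.8 CPM in the WT cluster Macrophages 2 and at 944, 1226 and 852 CPM in the i4F cluster Macrophages 3.

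In i4F myeloid cells 0 of 39 members were called against WT by edgeR, with 0.00828% of all genes called, 17 had an unadjusted p under 0.05, beside 19.9% of all genes, and DESeq2 called 7. Without i4F 3 edgeR called 14, of which 7 were higher. Cxcl2 was at 7952 and 12059 CPM in WT, 22945, 28909 and 14015 CPM in i4F and 14918 and 9293 CPM in caerulein. Ccl6 was at 1022 and 702 CPM, 3686, 4075 and 1782 CPM, and 3075 and 2213 CPM. Cx3cr1, the fractalkine receptor of resident macrophages, was at 112 and 94.9 CPM, 19.7, 4.85 and 44.5 CPM, and 51.8 and 61.8 CPM. i4F did not overlap WT for any of the 3, but none of them was called with all mice in the fit, and non-overlap is no test. The i4F log2 fold change of Cxcl2 was 1.24 ± 0.43 (adjusted p = 0.188, edgeR's quasi-likelihood test with Benjamini-Hochberg adjustment). In i4F against caerulein, with 1.67% of all genes called, Ackr3 was the 1 member called (16.8, 18.0 and 5.16 CPM in i4F and 0.815 and 0.194 CPM in caerulein, 4.46 ± 0.73, adjusted p = 0.0465). Without i4F 3 the count was 9, and without any other mouse it was 0. With the caerulein B lymphocytes cluster added, Ackr3 had 4.02 and an adjusted p of 0.065. With the series term it was not called.

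The other members with a mean of 100 CPM or more in a myeloid group were called in no comparison. Ccl4 was at 9487 and 10905 CPM in WT, 4991, 3061 and 7149 CPM in i4F and 3288 and 2385 CPM in caerulein, and its adjusted p in caerulein against WT was 0.0515 (-1.78 ± 0.42, edgeR's quasi-likelihood test with Benjamini-Hochberg adjustment). Cxcl16 was at 442 and 414 CPM in WT, 244, 101 and 382 CPM in i4F and 233 and 213 CPM in caerulein. WT was highest for both. Ccl2 was at 2129 and 2579 CPM in WT, 3463, 5107 and 3093 CPM in i4F and 2549 and 1666 CPM in caerulein. Ccl7 was at 1499 and 2419 CPM in WT, 2004, 1905 and 2061 CPM in i4F and 2366 and 1246 CPM in caerulein. i4F stood above both other groups for Ccl2, and the 3 groups overlapped for Ccl7. Cxcl1 was at 403 and 795 CPM in WT, 3010.1, 2979.9 and 1173 CPM in i4F and 1815 and 678 CPM in caerulein. Cxcl3 was at 117 and 17.6 CPM in WT, 586, 1783 and 194 CPM in i4F and 243 and 88.3 CPM in caerulein. Ccl9 was at 619 and 349.9 CPM in WT, 1867, 2576 and 855 CPM in i4F and 735 and 858 CPM in caerulein. i4F lay above WT for Cxcl1, Cxcl3 and Ccl9 and overlapped caerulein. Ccl8 was at 19.97 and 199 CPM in WT, 186, 147 and 428 CPM in i4F and 345 and 178 CPM in caerulein. Ccl12 was at 217 and 332 CPM in WT, 165, 125 and 454 CPM in i4F and 198 and 138 CPM in caerulein. Ccl24 was at 50.7 and 281 CPM in WT, 291, 777 and 104 CPM in i4F and 113 and 43.8 CPM in caerulein. These 3 overlapped between WT and i4F. Ccl5 was at 161 and 580.4 CPM in WT, 201, 114 and 2917 CPM in i4F and 75.2 and 49.8 CPM in caerulein, with i4F 3 far above every other library. The receptor Ccr1 was at 93.7 and 83.4 CPM in WT, 249, 327 and 102 CPM in i4F and 133 and 135 CPM in caerulein, and Ccr2 at 206 and 121 CPM in WT, 103, 129 and 83.9 CPM in i4F and 143 and 195 CPM in caerulein. WT lay below every treated mouse for Ccr1 and overlapped both treated groups for Ccr2.

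Cxcr2, the receptor for the Cxcl1, Cxcl2, Cxcl3 and Cxcl5 proteins, was concentrated in 1 myeloid cluster of each treated group. It was at 363, 466 and 149 CPM (64, 114 and 4 UMIs) in the i4F cluster Macrophages 2 and at 408 and 259 CPM (92 and 9 UMIs) in the caerulein cluster Macrophages 3. These clusters held the neutrophil markers at 98040, 143706 and 287465 summed CPM in i4F and 59336 and 60981 in caerulein, which goes against their name. They counted 359, 435 and 15 cells in i4F and 630 and 84 in caerulein. In the other macrophage clusters Cxcr2 was at 0 to 8.23 CPM. The same caerulein cluster carried Cxcl2 at 51609 and 41086 CPM and Ccl3 at 5129 and 4578 CPM, where caerulein Macrophages 1 had Ccl3 at 301 and 318 CPM.

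In NK/T cells, a class annotated in WT and i4F mice, 3 of 18 tested members were called lower in i4F and 0 higher by edgeR, with 1.51% of all genes called, and DESeq2 called 8, of which 3 were higher. Ccl4, which cytotoxic lymphocytes release on activation, was at 1511 and 1768 CPM in WT and 252, 95.8 and 159.8 CPM in i4F. Ccl3 was at 487 and 248 CPM in WT and 67.0, 19.8 and 43.4 CPM in i4F. Ccr2 was at 411 and 274 CPM in WT and 92.7, 16.5 and 43.4 CPM in i4F. The groups did not overlap for any of the 3, and i4F 3 lay between the other i4F mice. Ccl4 fell by 3.20 ± 0.35, Ccl3 by 2.98 ± 0.43 and Ccr2 by 2.73 ± 0.47 on the log2 scale (adjusted p = 0.00515, 0.0159 and 0.0273, edgeR's quasi-likelihood test with Benjamini-Hochberg adjustment). Ccl4 passed the threshold in 14 of 14 alternatives, the highest adjusted p being 0.0449, and Ccl3 and Ccr2 in 12, with both lost without WT 1 and without i4F 2. The count was 1 in each of those 2, 7 without i4F 1, of which 1 was higher, and 8 without i4F 3, of which 3 were higher.

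The make-up of the NK/T class differed in the same comparison. NK cell markers summed to 5381 and 2726 CPM in WT and 932, 535 and 901 CPM in i4F, and T cell markers to 4116 and 4541 CPM and 3941, 3658 and 5265 CPM. NK markers did not overlap between the groups and T cell markers did. Cells under 500 detected genes were 8.33% and 4.96% of NK/T cells in WT and 52.6%, 66.4% and 25.3% in i4F, and mixed-marker cells were 0% in both WT mice and 15.5%, 3.51% and 1.91% in i4F. With cells under 500 genes left out the log2 fold changes of Ccl4, Ccl3 and Ccr2 were -3.16, -2.96 and -2.67, and with mixed-marker cells left out they were -3.16, -3.06 and -2.69, all still called. The part of the NK marker shift in these results was not tested. Other members in the class with a WT level above i4F were Ccl1, a Ccr8 ligand (525 and 325 CPM in WT, 0, 0 and 53.0 CPM in i4F), Ccr8 (87.6 and 51.4 CPM, 10.3, 6.61 and 9.57 CPM) and Cxcr6, the receptor of Cxcl16 (411 and 445 CPM, 170.0, 29.7 and 70.7 CPM). Each had an adjusted p of 0.0601 by edgeR's quasi-likelihood test with Benjamini-Hochberg adjustment. Ccl5 was at 5249 and 5213 CPM in WT and 3112, 1431 and 2572 CPM in i4F (adjusted p = 0.183), and Ccr7, a receptor of naive and memory lymphocytes, stood higher in i4F (153 and 163 CPM, 222, 634 and 535 CPM, adjusted p = 0.157). Ccl2 was at 0 and 8.56 CPM in WT and 206, 112 and 28.7 CPM in i4F (4.40 ± 1.23, adjusted p = 0.157). Ccl7 had 0 UMIs in WT and was at 92.7, 49.6 and 19.1 CPM in i4F, at least 4.41-fold higher against a floor of 3 UMIs over the WT mice. Neither Ccl2 nor Ccl7 overlapped between the groups, and the 7 tested inflammatory CC ligands, Ccl3 and Ccl4 among them, had a median log2 fold change of 3.68, beside 0.01 over all genes. Ccl7, absent in WT, passed the filter through i4F mice and could only be higher, so this median is no test. The median macrophage marker in NK/T cells was 0% and 0.196% of the myeloid level in WT and 1.85%, 1.53% and 0.702% in i4F, and its part in the Ccl2 and Ccl7 values was not tested. Cxcl2 was at 887 and 496 CPM in WT and 953, 459 and 134 CPM in i4F, and Cxcl1 at 383 and 25.7 CPM in WT and 56.7, 99.1 and 19.1 CPM in i4F. Both overlapped. Cxcr3, the receptor of Cxcl9 and Cxcl10, was at 93.1 and 137 CPM in WT and 67.0, 36.3 and 73.6 CPM in i4F, with no overlap and no call.

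In B cells of WT and i4F mice edgeR called 0 of 20 members, with 0.447% of all genes called, 8 had an unadjusted p under 0.05, beside 9.06% of all genes, and DESeq2 called 2. Without i4F 3 edgeR called 5, all higher, and without WT 1, WT 2 or i4F 1 it called 1. Ccr7 was at 449 and 272 CPM in WT and 524, 836 and 558 CPM in i4F, with a log2 fold change of 0.56 ± 0.32. Cxcr5, the Cxcl13 receptor, was at 125 and 61.9 CPM in WT and 105, 79.1 and 68.1 CPM in i4F. WT and i4F overlapped in Cxcr5 and not in Ccr7. Plasma cell markers summed to 12460 and 13683 CPM in the WT class and 524 to 689 CPM in i4F. The class held only clusters named B lymphocytes, so the i4F cluster named for follicular B cells lay outside it. The part of this difference in make-up in the plasma markers and the member values was not tested. Cxcl2 was at 4.63 and 2.38 CPM in WT and 2402, 801 and 119 CPM in i4F B cells (8.01 ± 1.51, adjusted p = 0.0712). Ccl2 was at 0 and 23.8 CPM in WT and 335, 222 and 41.5 CPM in i4F, and Ccl6 at 0 CPM in both WT mice and 259, 346 and 21.6 CPM in i4F. WT lay below i4F for these 3, and the i4F mice differed widely. Ccl4 was at 588 and 253 CPM in WT and 839, 326 and 402 CPM in i4F, Ccl3 at 97.3 and 26.2 CPM in WT and 261, 148 and 55.3 CPM in i4F, Cxcl1 at 4.63 and 35.7 CPM in WT and 415, 133 and 17.2 CPM in i4F and Cxcl10 at 398 and 54.8 CPM in WT and 16.3, 69.2 and 11.6 CPM in i4F. These 4 overlapped between the groups and were not called. In the same B cells the median macrophage marker was 0% and 0.0808% of the myeloid level in WT and 5.94%, 4.09% and 1.29% in i4F. Cells under 500 detected genes were 2.13% and 3.60% of B cells in WT and 69.8%, 89.5% and 42.1% in i4F. Mixed-marker cells were 0% in both WT mice and 12.4%, 4.66% and 3.18% in i4F. The part of these shifts in the B cell values was not tested.

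Genes that work beside the chemokines were taken from a list of 8 related genes and a list of 12 genes of receptor signalling. In stellate cells 3 of 11 tested genes of receptor signalling were called higher in caerulein (Dock2, Pik3r5 and Rgs1) and 2 in i4F (Dock2 and Rgs1), and none lower, where 17.1% and 20.6% of all genes were called. Of 5 tested related genes, Pf4 was called higher and Dpp4 lower in both comparisons. Dpp4, a protease that trims and inactivates several chemokines, fell by 2.31 ± 0.27 in caerulein and by 1.05 ± 0.23 in i4F. Rgs1, a leukocyte gene that damps receptor signalling, rose by 3.86 ± 0.55 and 1.89 ± 0.51. In endothelial cells 3 of 8 signalling genes (Dock2, Rac2 and Rgs1) and 1 of 4 related genes (Pf4) were called higher in caerulein, and Rac2 and Rgs1 in i4F, where 4.11% and 0.81% of all genes were called. In ductal cells 1 of 4 related genes (Pf4, 6.19 ± 1.13) and 0 of 8 signalling genes were called in caerulein, with 3.53% of all genes called. Dock2, Rac2 and Rgs1 are leukocyte genes and Pf4 a gene of platelets and macrophages, and the macrophage markers given above moved with them. In i4F against caerulein Pf4 and Rgs1 were called lower in endothelial cells (-4.27 ± 0.63 and -2.82 ± 0.39). In myeloid cells 2 of 7 related genes, Dpp4 and the chemoattractant gene Rarres2, were called lower in caerulein (-6.29 ± 1.33 and -4.27 ± 0.90), with 5.66% of all genes called. In NK/T cells 1 of 4, Rarres2, was called lower in i4F (-3.20 ± 0.58), with 1.51% of all genes called. The dendritic markers of myeloid cells and the NK markers of NK/T cells were lower in the same comparisons, and their part was not tested.

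Low-level members limit what can be read from the rest of the family. Over all libraries 18 of the 56 members had under 500 UMIs, among them the tested receptors Ccr6 (252), Ccr9 (371), Cxcr2 (423), Cxcr3 (377) and Cxcr5 (294) and the ligands Cxcl11 (108), Ccl20 (134) and Cxcl17 (149). Ccr3, Ccr4 and Ccr10, with 57, 32 and 25 UMIs, did not pass the filter on low counts, so a change between groups was not tested. Counting intervals and floors cover counting error only.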

How the data were processed

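UMI counts were used as deposited by the authors, 1 value for each gene and cell, from 10x 3′ libraries run through Cell Ranger (version not given in the sources used here) on mm10, with Seurat v3 for filtering and clusters. SoupX correction is named in the methods, and whether the deposited counts precede it is not stated. The deposited percent of mitochondrial UMIs per cell entered no result. Columns were matched to mice by the number in the library name, and 0 columns were left unused.

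UMIs were summed per mouse and class (at least 20 cells), with all groups of a class in 1 fit (edgeR 4.0.16 quasi-likelihood, TMM factors, filterByExpr, Benjamini-Hochberg over all genes). The NK/T fit held WT and i4F mice. The B class held the clusters named B lymphocytes, without the i4F cluster named for follicular B cells, and caerulein was not compared in it. DESeq2 1.42.0 ran as an alternative in R 4.3.3, and tables were made in Python 3.11.15. On simulated stellate counts (14328 genes, i4F against WT), 79% of the genes changed 8-fold were recovered. In the simulation each gene had the same mean in all groups, apart from 200 changed genes, and no library was set apart from its group. The figure therefore need not hold for the real fits. No doublet caller was run, and cells with at least 2 UMIs of another class's markers were left out as an alternative. In stellate, endothelial, ductal and acinar cells these markers were the leukocyte genes Ptprc, Coro1a, Laptm5, Tyrobp, Fcer1g and Cd52. Myeloid cells were screened for T and B cell genes. NK/T cells were screened for macrophage and B cell genes, and B cells for macrophage and T cell genes. Markers of other non-immune classes were not screened. Replicate numbers did not pair the mice. Values per mouse are given for members called in a class, or with a mean of 100 CPM or more in a compared group of it, and clusters are given by example. Exceptions are Cxcl10 and Ccr1 in stellate cells, which are given in part. Members and lists were chosen with earlier results of these data known. Values of 1 member are not reported here.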

Additional observations from a re-analysis of the deposited data

Results flagged for a closer look

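The difference between classes was not tested for any of the following, which stand out because every treated mouse lay above WT in some classes and below WT in another, among classes with a log2 difference of at least 1 and a group mean of at least 50 CPM. In caerulein against WT the log2 fold change of Ccl3 was 2.47 in acinar and 5.02 in endothelial cells and -2.13 in myeloid cells. That of Ccl4 was 2.25 in acinar, 2.53 in ductal, 6.50 in endothelial and 4.22 in stellate cells and -1.78 in myeloid cells. In i4F against WT, Ccl3 was at 3.95 in endothelial and -2.98 in NK/T cells, and Ccl4 at 1.63 in acinar, 2.84 in ductal, 4.25 in endothelial and 3.47 in stellate cells and -3.20 in NK/T cells. Other classes lay on the same sides with a smaller level or difference: Ccl3 was at 4.18 in stellate and 2.77 in ductal cells in caerulein and at 3.79 in stellate and 2.62 in acinar cells in i4F, and in i4F myeloid cells Ccl3 was at -0.67 and Ccl4 at -0.92, all without overlap with WT. The median macrophage marker, as a percent of the same mouse's myeloid level, moved with the higher classes: in caerulein it was 7.38% and 4.58% in acinar and 24.9% and 16.3% in endothelial cells, against 0.0785% and 0.613% and 0.317% and 0.266% in WT. Its part in these differences was not tested.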

How the results depend on the processing

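Over all classes, 19 member calls were made in i4F against WT, 37 in caerulein against WT and 3 in i4F against caerulein. In that order the counts were 63, 67 and 17 with DESeq2, 129, 112 and 56 with no filter on low counts, 6, 6 and 0 with the series of library names as a term, and 9, 70 and 2 with only the 2 groups compared. RLE factors left 1 call in i4F against caerulein, cells with at least 500 genes gave 5 there, and leaving out mixed-marker cells gave 22 in caerulein against WT. Leaving out 1 mouse at a time gave 2 to 100 calls in i4F against WT (lowest without WT 1, highest without i4F 3, under 13 also without WT 2, i4F 2 or either caerulein mouse), 2 to 84 in caerulein against WT (lowest without caerulein 1, highest without i4F 3, under 25 also without WT 1, WT 2 or caerulein 2) and 0 to 32 in i4F against caerulein (highest without i4F 3, 1 or 0 otherwise). A mouse left alone in its group is taken to vary like the others. Every member called in the 3 comparisons stayed called with DESeq2, with no filter and without i4F 3. No sign among the called members was reversed. With the replicate block, in which i4F 3 is the only mouse with its number and so adds nothing to the comparisons, the counts were 94, 73 and 20, and Ccl4 in stellate cells (caerulein) was the 1 call lost. Deviations of same-numbered mice correlated at -0.575 to 0.164, so the numbers were not taken to pair the mice. The cause of these changes was not tested beyond the numbers of mice and genes that each setting leaves. Members with few UMIs are limited by depth.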
